A study of Rattus norvegicus with 46 samples.

Results

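The 40 genes described here encode the machinery of mitosis and cytokinesis, from the kinase that starts mitosis to the proteins that part the daughter cells. They were taken by gene symbol, and a gene counted as measured where a probe set of the Affymetrix Rat Gene 1.1 ST array carried that symbol alone, the probe set with the highest mean over all arrays being used. By this rule 38 of the 40 were measured, on 38 of the 29214 probe sets of the array, and no value was found for Birc5 (survivin, a part of the chromosomal passenger complex) or Anln (anillin, a scaffold of the contractile ring). Ccnb2 and Nek2 each had 2 probe sets, which held the same values in every animal. Tests were run on the more variable 14607 probe sets, ranked by SD over the arrays, and all 38 measured genes were among them.

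Kidney RNA of male Wister rats was hybridized to 46 arrays, each taken as 1 animal from its replicate number. The deposited arrays outnumber those counted in the study's methods, which left out arrays that failed scanning, and whether any such array is among these 46 is not known here. In 9 groups the animals received valproic acid (VPA, 150 mg/kg, an anti-epileptic drug that inhibits histone deacetylases), dexamethasone (Dex, 3 mg/kg, a synthetic glucocorticoid) or saline (Vehicle) by a single injection ahead of 45 min of left renal ischemia. The right kidney was removed at reperfusion, and left kidneys were collected post-IR after 3, 24 or 120 h. VPA groups held 5, 5 and 4 animals at 3, 24 and 120 h, Dex groups held 4, 5 and 4, and Vehicle groups held 5, 4 and 5. The 5 naïve animals had no injury, drug or surgery, so that ischemia, the loss of the other kidney and the operation cannot be told apart in any comparison with them, and all 9 such comparisons share these 5 animals. The proximal tubule markers were present, since each of the 8 measured averaged at least 1930 signal units in naïve kidneys. Array medians ran from 64.7 to 87.5 signal units. Across all probe sets, VPA animal 2 and Vehicle animal 1 at 24 h and Vehicle animal 4 at 120 h lay nearest the mean of an injured group of another time, and Vehicle animal 1 at 120 h, Dex animal 4 at 24 h, VPA animal 3 at 3 h and VPA animals 2 and 3 at 120 h lay nearest the naïve mean.

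Most cells of the adult kidney rest outside the cell cycle. After ischemia, surviving tubular cells are known to re-enter it: they copy their DNA in S phase and then pass through mitosis, in which CDK1 with its cyclins condenses the chromosomes, kinetochores couple them to the spindle, a checkpoint holds back anaphase until all are attached, and the anaphase-promoting complex then releases the sister chromatids. Most of the genes are transcribed late in the cycle, and their RNA is used in pathology as a sign of dividing cells. In whole-kidney RNA, more cells in mitosis and more RNA per dividing cell cannot be told apart.

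In human and mouse cells, transcription of such genes is known to run through the cell cycle genes homology region (CHR), a short element near the start site bound by MuvB complexes, and through CCAAT boxes, bound by NF-Y. Promoters were therefore searched, from 250 bases before to 50 after each start, in the RefSeq table of the GRCr8 assembly, which held 35 of the 40 genes. Both strands were searched for CHR as TTTGAA or TTCGAA and for CCAAT, and adjacent matches of the 2 motifs can share 1 base. Promoters of 4 genes that hold both motifs and 1 with neither are printed 5′ to 3′ on the strand of the gene, with motif matches in capitals. TTCAAA and ATTGG are the same motifs read on the other strand.

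Cdk1, chr20:19265043-19265342 (+): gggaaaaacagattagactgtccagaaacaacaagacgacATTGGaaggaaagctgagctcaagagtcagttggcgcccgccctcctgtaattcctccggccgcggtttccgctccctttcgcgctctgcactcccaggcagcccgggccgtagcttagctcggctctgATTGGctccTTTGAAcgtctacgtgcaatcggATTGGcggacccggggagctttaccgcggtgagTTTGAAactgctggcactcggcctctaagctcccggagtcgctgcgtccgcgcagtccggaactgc
Cdc20, chr5:137255750-137256049 (-): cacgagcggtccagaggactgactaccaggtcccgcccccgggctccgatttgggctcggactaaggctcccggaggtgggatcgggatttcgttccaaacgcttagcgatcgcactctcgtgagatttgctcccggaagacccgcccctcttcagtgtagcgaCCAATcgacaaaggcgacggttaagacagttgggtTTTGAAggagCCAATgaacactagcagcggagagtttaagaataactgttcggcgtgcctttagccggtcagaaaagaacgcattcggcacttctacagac
Ect2, chr2:111966577-111966876 (-): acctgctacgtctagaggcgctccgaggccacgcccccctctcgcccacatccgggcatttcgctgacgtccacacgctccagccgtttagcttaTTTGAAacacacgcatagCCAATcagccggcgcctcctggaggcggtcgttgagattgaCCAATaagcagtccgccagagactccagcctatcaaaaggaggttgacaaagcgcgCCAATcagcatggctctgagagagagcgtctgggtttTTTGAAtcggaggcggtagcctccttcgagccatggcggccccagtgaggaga
Top2a, chr10:84473044-84473343 (-): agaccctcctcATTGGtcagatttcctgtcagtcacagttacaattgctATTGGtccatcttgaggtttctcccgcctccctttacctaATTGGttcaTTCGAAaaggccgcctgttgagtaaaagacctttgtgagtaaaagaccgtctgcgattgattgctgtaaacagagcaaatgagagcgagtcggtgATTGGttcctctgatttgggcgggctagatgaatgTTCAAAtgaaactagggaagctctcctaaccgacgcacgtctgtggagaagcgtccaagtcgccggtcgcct
Melk, chr5:63335901-63336200 (+): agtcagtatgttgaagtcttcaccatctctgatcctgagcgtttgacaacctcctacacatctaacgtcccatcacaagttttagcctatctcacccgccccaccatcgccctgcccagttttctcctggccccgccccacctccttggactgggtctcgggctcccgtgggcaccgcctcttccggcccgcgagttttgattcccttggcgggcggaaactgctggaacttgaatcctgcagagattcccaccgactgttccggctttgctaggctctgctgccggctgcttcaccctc

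With the start site at position 0, the CHR match nearest to the start began at -16 in Cdk1, -51 in Cdc20, -3 in Ect2 and -22 in Top2a. Of the 35 promoters, 24 (68.6%) held a CHR match, against 5358 of 27456 promoters in the table (19.5%), and in all 24 a match lay within 100 bases before to 50 bases after the start, against 8.68% of the table. A CCAAT box was found in 25 of 35 (71.4%), against 37.7% of the table, and 18 of 35 (51.4%) held at least 2, against 11.5%. Both motifs stood together in 19 promoters (54.3%), against 7.83% of the table. Counting TTTAAA as a CHR too raised the share to 31 of 35 (88.6%) against 29.2%. Neither CHR as TTTGAA or TTCGAA nor CCAAT was found in Aurka, Bub1, Kif18a, Kif2c and Melk, of which the first 4 were called up in VPA animals at 24 h against naïve (2.22-fold, 2.7-fold, 2.32-fold and 3.14-fold) and Melk was not. Aurka, Bub1 and Kif2c did hold TTTAAA, while Kif18a and Melk did not. Calls required a change of 2-fold or more and an adjusted p under 0.05 (limma, Benjamini-Hochberg). A match describes these letters and is neither a site nor a cause of the values that follow.

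In naïve kidneys the mean signals of the 38 genes ran from 11.2 to 369. Probe sets differ in how they bind their target, so the order of these signals is not an order of RNA levels. The naïve animals themselves differed: animal 1 was the lowest of the 5 for 25 of the 38 genes and animal 2 for 11, while animals 3, 4 and 5 held the highest value of every gene. Between animals of 1 group the genes varied more than the array as a whole, with a median SD of 0.55 on the log2 scale against 0.34 for all tested probe sets.

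Each animal was described by a score, the mean over the 38 genes of log2(signal + 16) less the naïve mean of that gene. The naïve animals scored -0.53, -0.29, 0.28, 0.25 and 0.29, and at 3 h all 14 injured animals lay between -0.49 and 0.21. At 24 h the score was 2.17, 1.32, 1.89, 1.39 and 0.58 in VPA animals, 0.98, 1.13, 0.93, -0.09 and 0.25 in Dex animals and -0.33, 1.26, 1.15 and 0.76 in Vehicle animals. All VPA animals at 24 h thus stood above every naïve animal, while Dex animals 4 and 5 and Vehicle animal 1 stood within the naïve range. At 120 h the score was 1.71, 0.27, -0.05 and 1.5 in VPA animals, 1.46, 1.15, 1.3 and 1.76 in Dex animals and 0.53, 1.04, 1.1, 0.55 and 1.37 in Vehicle animals. At 120 h VPA animals 2 and 3 stood within the naïve range and VPA animals 1 and 4 above it, as did all Dex and all Vehicle animals. The Dex animals at 120 h were the most alike among the 6 groups at these 2 times (SD 0.26, against 0.37 to 0.88 in the others).

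**Figure D1:**
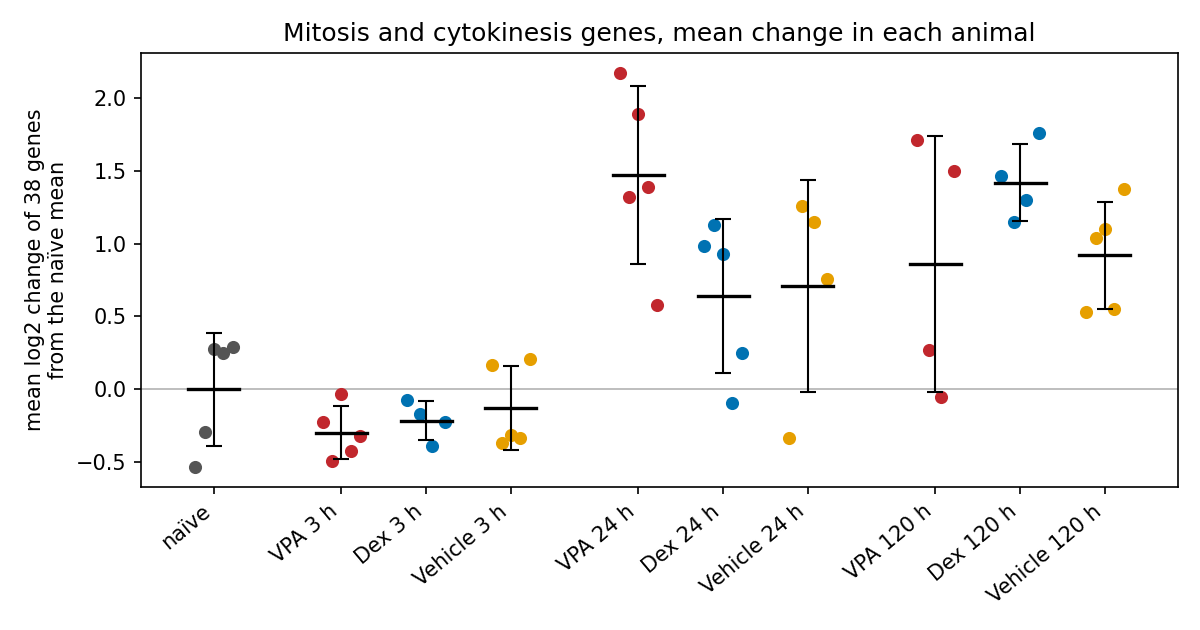
Mean log2 change of the 38 mitosis and cytokinesis genes from the naïve mean (vertical axis) in each animal of the 10 groups (horizontal axis, by time); points are animals, in order of replicate number, and bars are the mean and SD. All 5 VPA animals at 24 h and all 4 Dex and all 5 Vehicle animals at 120 h lie above the naïve animals, and the 4 VPA animals at 120 h lie at 1.71, 1.5, 0.27 and -0.05.

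At 3 h post-IR Cdc25b was the only 1 of the 38 genes called, and it rose in Vehicle animals. Cdc25b, a phosphatase that activates CDK1 before mitosis, had signals of 195, 392, 233, 230 and 191 in VPA animals, 431, 324, 206 and 224 in Dex animals and 1240, 189, 426, 227 and 651 in Vehicle animals, against 96.8, 96.4, 215, 180 and 204 in naïve animals. Vehicle animals 1, 3, 4 and 5, Dex animals 1, 2 and 4 and VPA animals 2, 3 and 4 stood above every naïve value, and each injured group overlapped the naïve range. The change was 1.44 ± 0.32 (SE) on the log2 scale in Vehicle animals, a 2.71-fold rise (limma adjusted p = 0.001), and 0.85 ± 0.33 in Dex animals (adjusted p = 0.068) and 0.62 ± 0.32 in VPA animals (adjusted p = 0.19), which were not called. Vehicle animal 1, with the highest Cdc25b signal, also had the highest red blood cell precursor marker score of its group, 2.3 against 0.35 to 0.98 in the other 4 Vehicle animals. Its array had the highest median signal of all 46, 87.5, and its tubular injury score, 0.52, was the lowest of its group. The part of any of these in the Cdc25b signal was not tested. The other genes leaned the other way: 32, 31 and 28 of 38 were below naïve in VPA, Dex and Vehicle animals, with medians of -0.39, -0.24 and -0.11, whereas all tested probe sets had medians of 0.10, 0.03 and 0.07. None of the 38 was called down by limma, where 0.459%, 0.657% and 0.459% of all tested probe sets were, and 2, 2 and 1 genes were lower at an unadjusted p under 0.05. In the 3 comparisons 0, 0 and 1 of 38 genes were called up, where 1.43%, 4.44% and 3.18% of all tested probe sets were.

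At 24 h most mitosis genes were called up against naïve kidneys in VPA animals, and fewer in Dex and Vehicle animals, all set against the same naïve animals. In VPA animals 33 of 38 genes (86.8%) were called up, with a median change of 1.46 (2.74-fold), while 5.92% of all tested probe sets were called up. In Dex animals 5 of 38 (13.2%) were called up, with a median of 0.69, beside 2.59% of all tested probe sets, and in Vehicle animals 8 of 38 (21.1%), with a median of 0.73, beside 4.79%. For 27 genes the lowest VPA animal lay above the highest naïve animal, against 17.5% of all tested probe sets. For Dex and Vehicle animals that count was 2 and 1, against 6.92% and 10.5%.

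**Figure D2:**
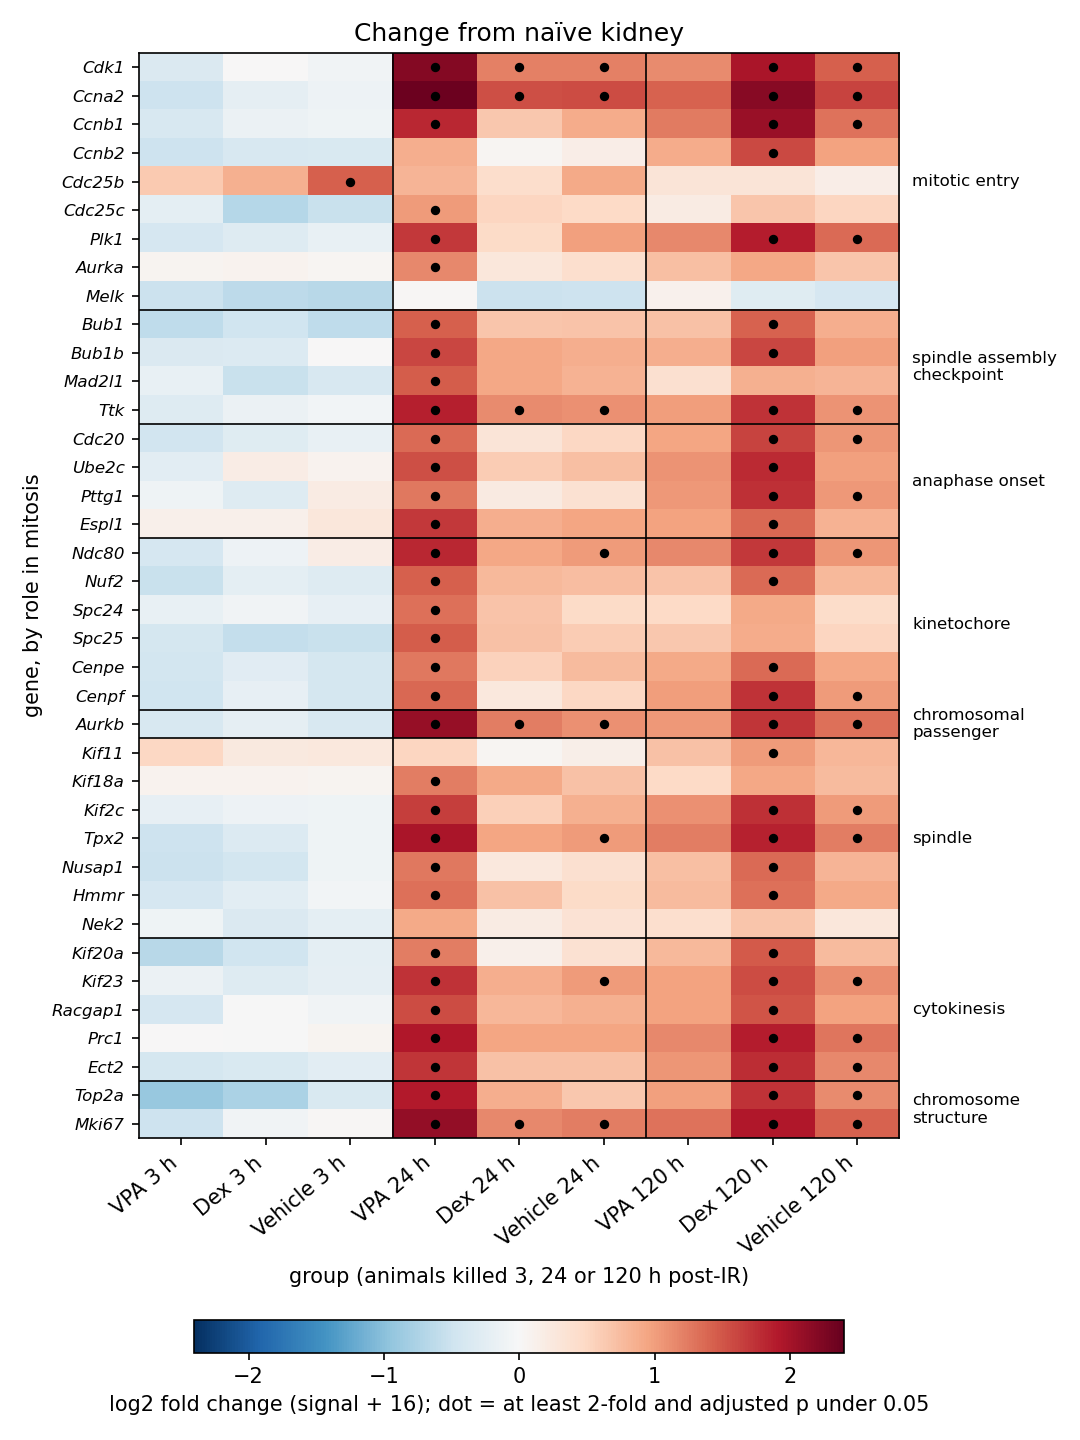
Log2 fold change of signal + 16 from naïve kidneys for the 38 measured genes (rows, by role) in VPA, Dex and Vehicle animals at 3, 24 and 120 h (columns); red is higher and blue lower than naïve, and a dot marks a gene called up. Dots fill the column of VPA at 24 h (33 genes) and of Dex at 120 h (29), while Dex and Vehicle at 24 h hold 5 and 8 and VPA at 120 h holds 0.

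Among the genes of mitotic entry, Ccna2 (cyclin A2, active from S phase into early mitosis) had signals of 754, 352, 687, 472 and 276 in VPA animals at 24 h, 339, 448, 406, 91.6 and 222 in Dex animals and 72.1, 464, 437 and 320 in Vehicle animals, against 46.2, 30.9, 109, 150 and 122 in naïve animals. All VPA animals stood above the naïve range, and 1 animal in each of the Dex and Vehicle groups fell inside it. Ccna2 rose 5.09-fold in VPA animals (2.35 ± 0.43, adjusted p = 0.00012), 2.92-fold in Dex animals (adjusted p = 0.0088) and 2.94-fold in Vehicle animals (adjusted p = 0.0084). Cdk1, the kinase that cyclins A and B drive, rose 4.62-fold, 2.31-fold and 2.3-fold in VPA, Dex and Vehicle animals. Plk1, a kinase of spindle poles and kinetochores, and Ccnb1 (cyclin B1) rose in VPA animals, by 1.69 and 1.81 on the log2 scale, and their changes of 0.45 and 0.64 in Dex animals and of 0.99 and 0.89 in Vehicle animals were not called. Ccnb2 (cyclin B2) was not called at 24 h in any group, with 0.88, 0.04 and 0.16 in VPA, Dex and Vehicle animals. Of the 9 genes of this group 6, 2 and 2 were called.

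The spindle assembly checkpoint keeps anaphase waiting. Mad2l1, the MAD2 protein that binds and blocks CDC20, had signals of 451, 309, 362, 414 and 266 in VPA animals at 24 h, 309, 334, 290, 114 and 226 in Dex animals and 96.5, 304, 293 and 291 in Vehicle animals, against 117, 109, 127, 101 and 149 in naïve animals. Dex animal 4 stood among the naïve animals and Vehicle animal 1 below them, and all the others were above them. Mad2l1 rose 2.73-fold in VPA animals (adjusted p = 8.2e-05), and its changes of 1.89-fold in Dex and 1.78-fold in Vehicle animals were under the 2-fold limit (adjusted p = 0.0087 and 0.016). Bub1, a checkpoint kinase at kinetochores, had 300, 190, 275, 180 and 97.3 in VPA animals, 147, 180, 131, 45.5 and 83.8 in Dex animals and 32.3, 195, 159 and 123 in Vehicle animals, against 43.2, 56.8, 84, 67.1 and 66.1 in naïve animals. The VPA animals again cleared the naïve range, and Bub1 rose 2.7-fold in them (adjusted p = 0.001). Ttk, the MPS1 kinase that starts checkpoint signaling, rose in all 3 groups, by 1.87 ± 0.33, 1.13 ± 0.33 and 1.1 ± 0.35 in VPA, Dex and Vehicle animals.

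Of the 4 genes of anaphase onset, 4 were called up at 24 h in VPA animals, 0 in Dex animals and 0 in Vehicle animals. Cdc20, which activates the anaphase-promoting complex, had signals of 531, 368, 492, 232 and 133 in VPA animals, 143, 226, 202, 105 and 89 in Dex animals and 73.7, 264, 212 and 186 in Vehicle animals, against 58.5, 118, 138, 140 and 138 in naïve animals. VPA animal 5 fell inside the naïve range, as did Dex animals 4 and 5 and Vehicle animal 1. Cdc20 rose 2.54-fold in VPA animals (1.35 ± 0.34, adjusted p = 0.0022), and changed by 0.30 ± 0.34 in Dex and 0.50 ± 0.36 in Vehicle animals (adjusted p = 0.55 and 0.33). Pttg1 (securin, the inhibitor of separase) had 391, 202, 284, 187 and 68.4 in VPA animals, 124, 126, 116, 55.6 and 49.1 in Dex animals and 59.1, 138, 124 and 92.7 in Vehicle animals, against 35.3, 55.6, 98.1, 103 and 99.5 in naïve animals. VPA animal 5 was again within the naïve range, and the rise was 2.4-fold in VPA animals (adjusted p = 0.004) beside 1.16-fold in Dex and 1.29-fold in Vehicle animals, neither called.

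All 6 kinetochore genes were called up in VPA animals at 24 h, 0 in Dex animals and 1 (Ndc80, the microtubule-binding subunit, 2.05-fold) in Vehicle animals, with changes of 1.27 to 1.80 in VPA, 0.25 to 0.92 in Dex and 0.46 to 1.03 in Vehicle animals. Cenpf, a large protein that joins the kinetochore late in the cycle, had signals of 374, 185, 268, 172 and 60.2 in VPA animals, 95, 113, 94.3, 53 and 43.2 in Dex animals and 43.7, 152, 121 and 86.2 in Vehicle animals, against 28.3, 46.3, 87.1, 92.7 and 72.2 in naïve animals. VPA animal 5 alone of the VPA group overlapped the naïve range, and Cenpf rose 2.59-fold (adjusted p = 0.0021). Cenpe, a kinesin that carries chromosomes to the spindle equator, had 228, 134, 181, 129 and 67.6 in VPA animals, 110, 107, 85, 42 and 65.1 in Dex animals and 36.2, 153, 115 and 103 in Vehicle animals, against 39.6, 36.6, 63.1, 52.3 and 52.6 in naïve animals. All VPA animals exceeded the naïve range, and the rise was 2.41-fold (adjusted p = 0.00082). Aurkb (Aurora B, the kinase of the chromosomal passenger complex) had 565, 257, 458, 271 and 164 in VPA animals, 224, 272, 228, 70 and 123 in Dex animals and 42.2, 225, 271 and 172 in Vehicle animals, against 33.5, 63.7, 79.2, 77.5 and 64.3 in naïve animals. Aurkb rose in every group, 4.24-fold in VPA, 2.35-fold in Dex and 2.14-fold in Vehicle animals, with 1 animal of each of the last 2 groups inside the naïve range.

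Of the 7 spindle genes, 5 were called up in VPA animals at 24 h, 0 in Dex animals and 1 in Vehicle animals (Tpx2, which activates Aurora A on the spindle, 2.03-fold). Kif11, the kinesin that pushes spindle poles apart, had signals of 687, 538, 589, 527 and 389 in VPA animals, 466, 429, 535, 242 and 312 in Dex animals and 488, 385, 461 and 315 in Vehicle animals, against 241, 348, 383, 512 and 412 in naïve animals. All 3 groups overlapped the naïve animals, and the change in VPA animals was 1.44-fold (adjusted p = 0.04). Nek2, a kinase that separates the centrosomes, had 729, 452, 612, 429 and 236 in VPA animals, 283, 292, 332, 251 and 233 in Dex animals and 221, 351, 379 and 297 in Vehicle animals, against 136, 259, 272, 278 and 280 in naïve animals. VPA animal 5 was the only VPA animal within the naïve range, and the change of 1.88-fold missed the 2-fold limit (adjusted p = 0.0014).

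All 5 measured cytokinesis genes were called up in VPA animals, 0 in Dex animals and 1 in Vehicle animals (Kif23, a motor of the central spindle, 2.03-fold), with changes of 1.23 to 1.92, 0.12 to 0.94 and 0.36 to 1.02. Prc1, which bundles the microtubules of the central spindle, had signals of 557, 294, 446, 320 and 155 in VPA animals, 218, 258, 203, 81.1 and 99.1 in Dex animals and 55.8, 254, 238 and 171 in Vehicle animals, against 30, 54.6, 106, 109 and 106 in naïve animals. Ect2, the exchange factor that turns on RhoA at the cleavage furrow, had 808, 443, 603, 580 and 220 in VPA animals, 277, 355, 308, 129 and 179 in Dex animals and 94.8, 345, 326 and 274 in Vehicle animals, against 73.1, 115, 154, 207 and 185 in naïve animals. All VPA animals cleared the naïve range for both genes, while Dex animals 4 and 5 and Vehicle animal 1 did not. Prc1 rose 3.79-fold and Ect2 3.27-fold in VPA animals (adjusted p = 0.00014 and 0.0004), and in Dex and Vehicle animals the changes were 1.92-fold each for Prc1 and 1.62-fold each for Ect2, none called.

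Top2a, the topoisomerase that untangles sister chromatids, had signals of 1160, 650, 989, 583 and 265 in VPA animals at 24 h, 472, 494, 423, 165 and 178 in Dex animals and 84.5, 453, 412 and 287 in Vehicle animals, against 71.2, 145, 218, 222 and 219 in naïve animals. Mki67 (Ki-67, which coats mitotic chromosomes and is the usual marker of dividing cells) had 1180, 630, 1070, 678 and 337 in VPA animals, 511, 612, 514, 153 and 241 in Dex animals and 123, 628, 569 and 436 in Vehicle animals, against 81.7, 106, 211, 205 and 213 in naïve animals. All VPA animals were above the naïve range for both genes. Top2a rose 3.73-fold in VPA animals (adjusted p = 0.00042), with 1.84-fold in Dex and 1.56-fold in Vehicle animals not called. Mki67 rose 4.32-fold, 2.23-fold and 2.32-fold in VPA, Dex and Vehicle animals (adjusted p = 0.00013, 0.028 and 0.021).

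**Figure D3:**
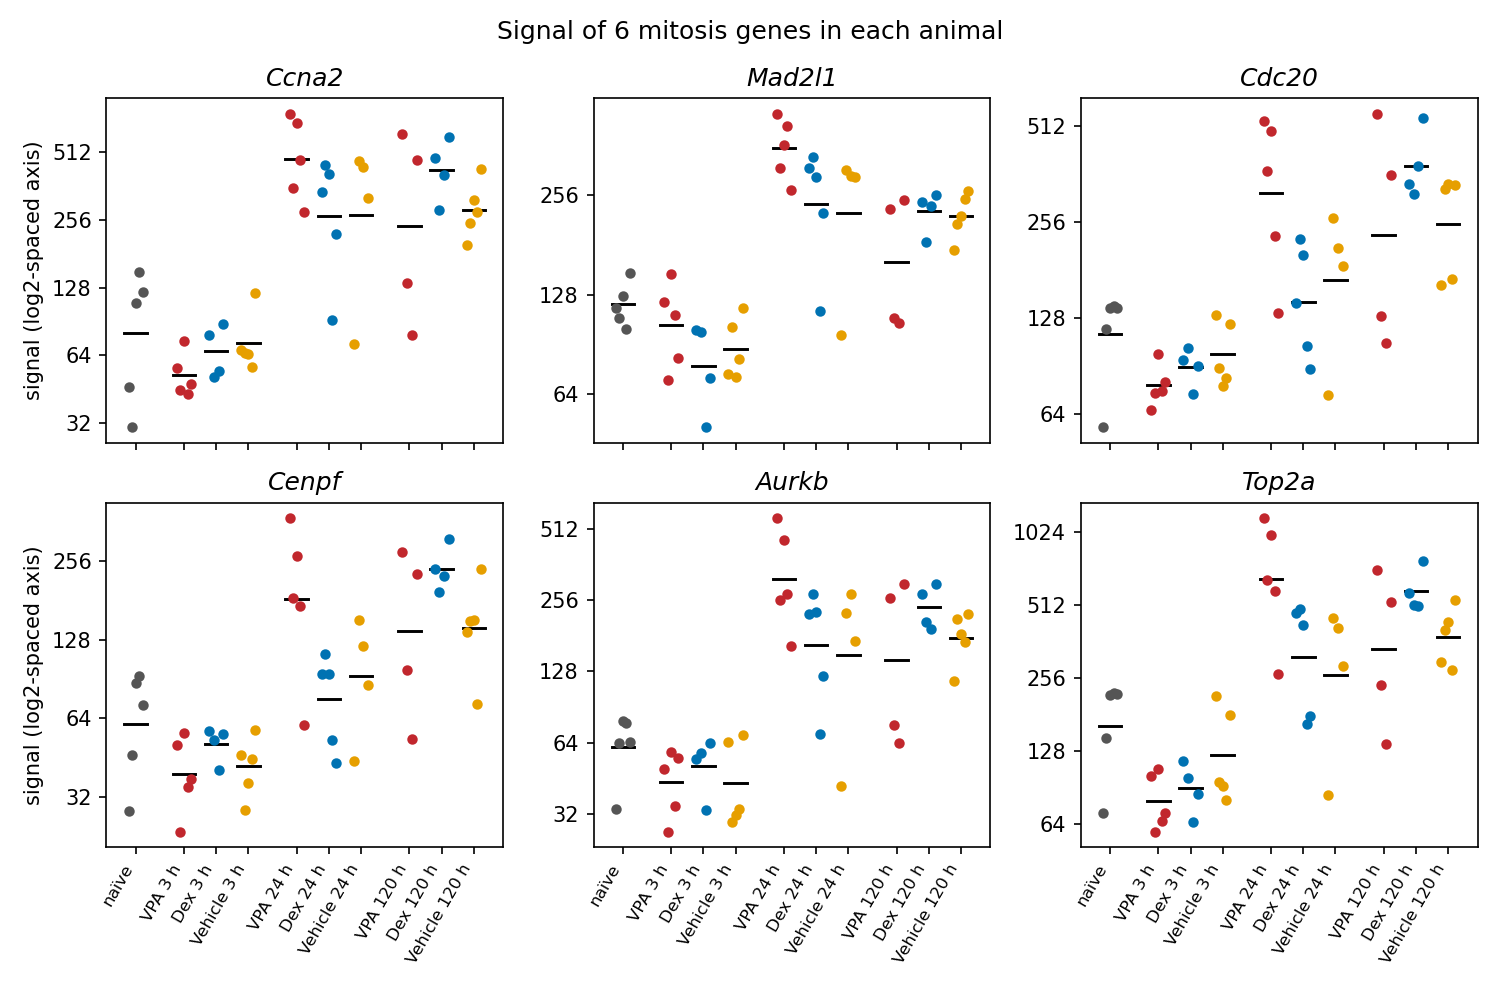
Signal (vertical axis, spaced by log2) of 6 genes in each animal of the 10 groups (horizontal axis, by time); points are animals and lines are means taken on the log2(signal + 16) scale. For Ccna2, Mad2l1, Aurkb and Top2a all 5 VPA animals at 24 h lie above the naïve animals, and for all 6 genes Vehicle animal 1 at 24 h lies within or below the naïve range.

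The counts at 24 h in Dex and Vehicle animals hung on single animals. Without Vehicle animal 1, which stood near the 3 h groups, 24 genes were called in Vehicle animals against naïve, and without Vehicle animal 2, 3 or 4 the count was 0, 1 or 2. Without Dex animal 4 the count in Dex animals was 16, without Dex animal 2 it was 1, and without Dex animal 1 or 3 it was 3. Without naïve animal 1 or 2 it was 3 and 3 in Dex animals and 2 and 3 in Vehicle animals. In VPA animals the count stayed between 32 and 35 whichever animal was left out.

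Although VPA animals had the higher means at 24 h, the difference from the other treatments did not pass the call rule. Against Vehicle animals at 24 h, 37 of 38 genes were higher in VPA animals, with a median of 0.78, 29 at an unadjusted p under 0.05 and 0 called, and 0% of all tested probe sets were called up in that comparison. Top2a differed most, by 1.26 ± 0.42 (limma adjusted p = 0.65), and Spc24 of the NDC80 complex had the lowest adjusted p, 0.58. Against Dex animals at 24 h, all 38 genes were higher in VPA animals, with a median of 0.85, 33 at an unadjusted p under 0.05 and 0 called, where 0.171% of all tested probe sets were called up. Of all tested probe sets, 54.1% were higher in VPA than in Vehicle animals and 48.7% higher than in Dex animals. The mitosis genes moved together within an animal, so counts at an unadjusted p are not separate results. Kif2c, a kinesin that takes microtubules apart at kinetochores, had the lowest adjusted p (1.08 ± 0.31, adjusted p = 0.092), and 4 genes passed without VPA animal 5 and 1 without Dex animal 1. Without moderated variances the counts were 0 in both comparisons. Dex animals differed from Vehicle animals at 24 h by a median of -0.06, with 0 genes called, 0 at an unadjusted p under 0.05, and 0.103% of all tested probe sets called up. At 3 h 0 genes were called between any 2 treatments by limma, with or without moderated variances, and Cdc25b in VPA against Vehicle animals was the only 1 of the 38 at an unadjusted p under 0.05 (-0.82 ± 0.32, adjusted p = 0.3). Of all tested probe sets, 0.00685%, 0.144% and 0.0274% were called up in VPA against Vehicle, Dex against Vehicle and VPA against Dex animals at 3 h.

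At 120 h the calls against naïve kidneys lay in Dex and Vehicle animals. In Dex animals 29 of 38 genes (76.3%) were called up against naïve, with a median change of 2.99-fold, beside 4.76% of all tested probe sets. In Vehicle animals 17 of 38 (44.7%) were called up, with a median of 0.97, beside 1.83%. In VPA animals 0 of 38 were called, with a median of 0.95 and 29 genes higher at an unadjusted p under 0.05, beside 0.493% called up over all tested probe sets, and the test without moderated variances also called 0. For 35 genes the lowest Dex animal lay above the highest naïve animal (19.3% of all tested probe sets), for 18 genes the lowest Vehicle animal did (5.04%), and for 0 genes the lowest VPA animal did (2.48%).

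Of the role groups, anaphase onset, cytokinesis and chromosome structure had every measured gene called in Dex animals at 120 h (4 of 4, 5 of 5 and 2 of 2), as did Aurkb, with 5 of 9 in mitotic entry, 3 of 4 in the checkpoint, 4 of 6 at the kinetochore and 5 of 7 in the spindle. At the same time 4, 1, 2, 2, 1, 2, 3 and 2 genes of mitotic entry, checkpoint, anaphase onset, kinetochore, passenger complex, spindle, cytokinesis and chromosome structure were called in Vehicle animals. Cdc20 had signals of 558, 130, 107 and 358 in VPA animals, 336, 313, 383 and 541 in Dex animals and 163, 325, 337, 170 and 334 in Vehicle animals, against 58.5, 118, 138, 140 and 138 in naïve animals. All Dex and Vehicle animals stood above the naïve range, and VPA animals 2 and 3 within it. Cdc20 rose 3.08-fold in Dex animals (1.62 ± 0.36, adjusted p = 0.0017) and 2.07-fold in Vehicle animals (adjusted p = 0.036), and its 1.91-fold change in VPA animals was not called (adjusted p = 0.12). Pttg1 had 324, 121, 70.1 and 268 in VPA animals, 281, 269, 241 and 373 in Dex animals and 124, 216, 222, 81.1 and 264 in Vehicle animals, against at most 103 in naïve animals, and rose 3.39-fold in Dex and 2.05-fold in Vehicle animals. Cenpf had 278, 98.4, 53.1 and 229 in VPA animals, 239, 196, 225 and 312 in Dex animals and 137, 151, 152, 72.8 and 240 in Vehicle animals, and rose 3.32-fold in Dex and 2.05-fold in Vehicle animals. For both genes VPA animal 3 and Vehicle animal 4 stood within the naïve range.

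Cyclin A2 and the chromosome genes rose in Dex and Vehicle animals at 120 h as well. Ccna2 had signals of 610, 134, 78.7 and 468 in VPA animals, 479, 283, 404 and 592 in Dex animals and 198, 247, 311, 276 and 427 in Vehicle animals, against at most 150 in naïve animals, and rose 4.57-fold in Dex animals (adjusted p = 0.001) and 3.1-fold in Vehicle animals (adjusted p = 0.014). Top2a had 711, 240, 137 and 527 in VPA animals, 571, 510, 504 and 776 in Dex animals and 299, 405, 436, 275 and 535 in Vehicle animals, against at most 222 in naïve animals. Mki67 had 853, 243, 188 and 656 in VPA animals, 642, 511, 568 and 821 in Dex animals and 315, 467, 518, 322 and 619 in Vehicle animals, against at most 213 in naïve animals. Every Dex and Vehicle animal exceeded the naïve range for these 3 genes, and VPA animal 3 did for none. Top2a rose 3.34-fold in Dex and 2.21-fold in Vehicle animals, and Mki67 3.8-fold and 2.66-fold.

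Checkpoint and kinetochore genes called in Dex animals at 120 h included Bub1 and Cenpe. Bub1 had signals of 240, 60.2, 47.7 and 200 in VPA animals at 120 h, 197, 176, 167 and 235 in Dex animals and 97, 124, 149, 107 and 172 in Vehicle animals, against at most 84 in naïve animals, and rose 2.66-fold in Dex animals (adjusted p = 0.0038). Mad2l1 had 233, 109, 105 and 247 in VPA animals, 244, 185, 237 and 257 in Dex animals and 175, 209, 222, 250 and 263 in Vehicle animals, against at most 149 in naïve animals, with 1.81-fold in Dex and 1.75-fold in Vehicle animals, neither called. Cenpe had 192, 56.9, 53.5 and 178 in VPA animals, 133, 134, 140 and 195 in Dex animals and 89.7, 136, 103, 67.2 and 157 in Vehicle animals, against at most 63.1 in naïve animals, and rose 2.57-fold in Dex animals (adjusted p = 0.0017). All Dex and Vehicle animals were above the naïve range for the 3 genes, and VPA animals 2 and 3 were within it. Aurkb had 262, 75.7, 64.1 and 300 in VPA animals, 272, 206, 194 and 299 in Dex animals and 117, 212, 184, 170 and 223 in Vehicle animals, against at most 79.2 in naïve animals, and rose 3.29-fold in Dex and 2.49-fold in Vehicle animals. Its Dex and Vehicle animals were all above the naïve range, and VPA animals 2 and 3 within it.

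Of the spindle and cytokinesis genes, Kif11 had signals of 726, 543, 487 and 712 in VPA animals at 120 h, 839, 743, 764 and 735 in Dex animals and 575, 859, 786, 360 and 833 in Vehicle animals, against at most 512 in naïve animals. VPA animal 3 and Vehicle animal 4 overlapped the naïve range. The mean of Kif11 was higher in each treatment at 120 h than in any treatment at 24 h, and it rose 2.04-fold in Dex animals (adjusted p = 0.001). Nek2 had 504, 258, 218 and 362 in VPA animals, 368, 319, 356 and 530 in Dex animals and 265, 322, 288, 238 and 351 in Vehicle animals, against at most 280 in naïve animals, and was called in no comparison with naïve. Prc1 had 364, 129, 76.9 and 309 in VPA animals, 308, 294, 272 and 418 in Dex animals and 141, 238, 271, 156 and 255 in Vehicle animals, against at most 109 in naïve animals, and rose 3.7-fold in Dex and 2.45-fold in Vehicle animals. Ect2 had 547, 153, 141 and 716 in VPA animals, 560, 389, 470 and 660 in Dex animals and 216, 427, 430, 203 and 470 in Vehicle animals, against at most 207 in naïve animals, and rose 3.4-fold in Dex and 2.23-fold in Vehicle animals. All Dex animals stood above the naïve range for Prc1 and Ect2, while VPA animal 3 was within it for both, and VPA animal 2 and Vehicle animal 4 for Ect2. Cdc25b had returned to 195, 208, 145 and 211 in VPA animals, 181, 201, 166 and 208 in Dex animals and 151, 158, 171, 162 and 207 in Vehicle animals, all inside the naïve range of 96.4 to 215.

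The counts at 120 h also depended on which animals were in the fit. Without VPA animal 3, 26 genes were called in VPA animals against naïve, and without VPA animal 2, 21. In Vehicle animals the count was 1, 4 or 5 without animal 5, 3 or 2, and 3 or 4 without naïve animal 1 or 2. In Dex animals it stayed between 28 and 31. Against Vehicle animals at 120 h, all 38 genes were higher in Dex animals, by a median of 0.54, with 0 called, 2 at an unadjusted p under 0.05 (Ube2c and Kif2c), and 0% of all tested probe sets called up. VPA animals differed from Vehicle animals by a median of -0.08, and from Dex animals by -0.64, with 0 genes called in both comparisons and 1 and 0 at an unadjusted p under 0.05. Over all tested probe sets 0% were called in either direction in these 2 comparisons too.

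Within each treatment, the median change was larger between 3 and 24 h than between 24 and 120 h, though by little in Dex animals (0.82 and 0.75). The study did its 3 h experiments first, followed by those at 24 and 120 h. Its 3 h animals were kept anesthetized to the end, while the later ones recovered and received buprenorphine. Time after injury cannot be told apart from these differences. In VPA animals 35 of 38 genes were called up at 24 h against 3 h (5.81% of all tested probe sets), with a median of 1.86. Ccna2 rose 7.17-fold and Top2a 7-fold (adjusted p = 4.3e-06 and 1.8e-06). In Dex animals 16 were called up (2.3%), with a median of 0.82, and in Vehicle animals 13 (1.87%), with a median of 0.93. The Dex count was 9 without Dex animal 3 of the 3 h group or animal 2 of the 24 h group and 10 without animal 1 of the 24 h group. The Vehicle count was 25 without animal 1 of the 24 h group, 1, 2 and 4 without animals 2, 3 and 4 of that group, and 8 without animal 3 of the 3 h group.

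Each treatment was also compared between 24 and 120 h. In Dex animals 11 genes were called up at 120 h against 24 h (2.14% of all tested probe sets), with a median of 0.75: Ccnb1, Ccnb2 and Plk1 of mitotic entry, Cdc20, Ube2c and Pttg1 of anaphase onset, and Cenpf, Kif2c, Nusap1, Kif20a and Ect2. Ube2c is the ubiquitin-conjugating enzyme of the anaphase-promoting complex, Nusap1 binds spindle microtubules and Kif20a is a kinesin of the central spindle. Ccnb2 rose 2.93-fold (1.55 ± 0.34, adjusted p = 0.0044), Pttg1 2.91-fold, Cenpf 2.8-fold and Cdc20 2.5-fold. Over the same step Mad2l1 changed by -0.06, Kif18a by 0.02 and Aurkb by 0.48 in Dex animals, none called. In VPA animals 35 of 38 genes were lower at 120 h than at 24 h, with a median of -0.65, and Mad2l1 alone was called down (-1.06 ± 0.27, adjusted p = 0.045, 0.267% of all tested probe sets), and 2 and 3 genes were called down without VPA animal 1 or 4 of the 120 h group, while the call was lost without VPA animal 1, 3, 4 or 5 of the 24 h group or animal 2 or 3 of the 120 h group. In Vehicle animals 0 genes were called, 2 and 1 were higher and lower at an unadjusted p under 0.05, the median was 0.19, and 0.0616% of all tested probe sets were called up. The Dex count was 6 or 7 without animal 4 or 5 of the 24 h group and 5 without animal 4 of the 120 h group. For 17 genes the lowest Dex animal at 120 h lay above the highest at 24 h, against 6.87% of all tested probe sets.

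**Figure D4:**
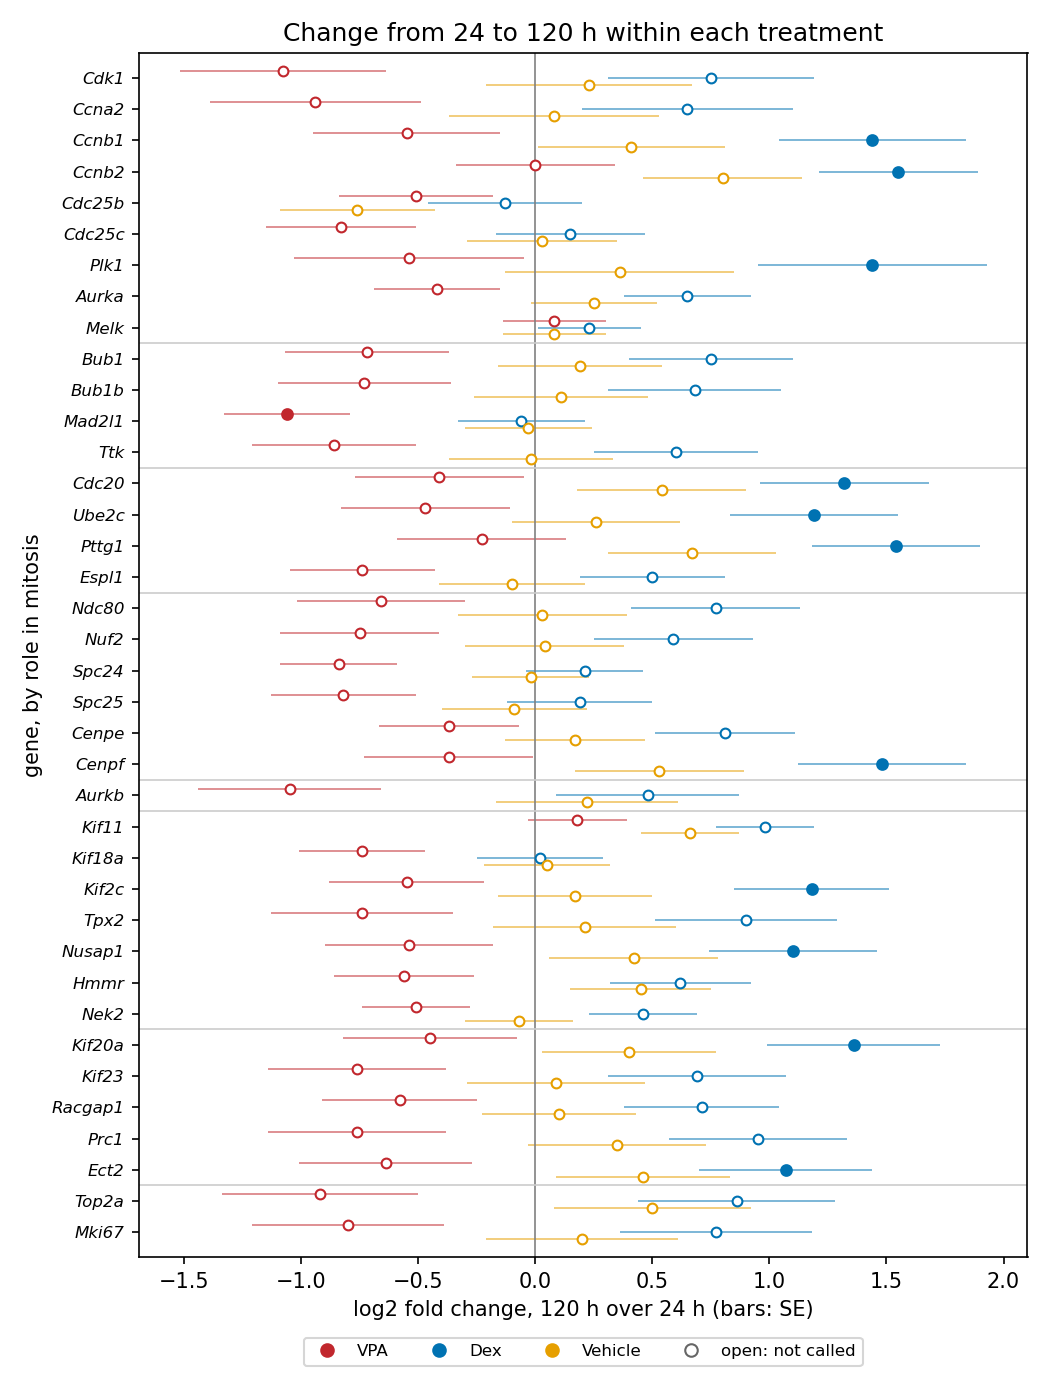
Log2 fold change at 120 h over 24 h (horizontal axis) for the 38 genes (vertical axis, by role) within VPA, Dex and Vehicle animals; bars are standard errors and filled points are genes called. Dex points lie mostly to the right of 0 with 11 filled, VPA points mostly to the left with Mad2l1 filled, and Vehicle points around a median of 0.19.

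Whether the step from 24 to 120 h differed between treatments was tested in the same fit. The step in VPA less that in Dex animals was negative for all 38 genes, with a median of -1.47, and 35 were at an unadjusted p under 0.05. None passed the adjustment, the lowest adjusted p being 0.19 for Kif2c (-1.74 ± 0.47), and 0% of all tested probe sets were called. Ccnb1 had the largest difference, -2 ± 0.57 (adjusted p = 0.21), and Melk the smallest, -0.15 ± 0.30. VPA less Vehicle gave a median of -0.85 with 9 genes at an unadjusted p under 0.05, and Dex less Vehicle a median of 0.60 with 1 gene, with 0 called in both (0% of all tested probe sets). For the step from 3 to 24 h, VPA less Dex gave a median of 0.95 with 19 genes at an unadjusted p under 0.05 and 0 called (lowest adjusted p 0.24), beside 0.246% of all tested probe sets called up. VPA less Vehicle gave 0.96 with 18 such genes and Dex less Vehicle 0.02 with 0, and 0 were called in both, beside 0% called up over all tested probe sets. Without moderated variances 0 genes were called in these 6 tests. The VPA and Dex steps are each set against the same Vehicle animals, and the 2 steps share the animals at 24 h.

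Genes of DNA replication, used before mitosis, were set beside them. Of 48 listed genes of DNA replication and S phase, 45 were measured and tested. At 24 h 40 of 45 were called up in VPA animals, 30 in Dex animals and 29 in Vehicle animals, with medians of 1.63, 1.26 and 1.2, and at 120 h 0, 16 and 5, with medians of 0.53, 0.89 and 0.69. Of all tested probe sets, 5.92%, 2.59% and 4.79% were called up against naïve at 24 h and 0.493%, 4.76% and 1.83% at 120 h. Pcna, the sliding clamp of DNA polymerase, rose by 1.46 ± 0.22, 1.14 ± 0.22 and 1.2 ± 0.23 at 24 h, and Mcm4 of the replicative helicase by 2.11, 1.55 and 1.64. In Dex animals at 24 h 30 of 45 S-phase genes were called beside 5 of 38 mitosis genes, and at 120 h 16 of 45 beside 29 of 38. Among naïve animals the mitosis score had an SD of 0.38 and the S-phase score 0.12. Counts called in the 2 lists therefore do not compare like with like. The score of the S-phase genes exceeded that of the mitosis genes in 11 of 14 animals at 24 h, including all 5 Dex and all 4 Vehicle animals, and in 1 of 13 animals at 120 h, Vehicle animal 4. The mean of the mitosis score less the S-phase score was -0.55 ± 0.29 in Dex, -0.42 ± 0.30 in Vehicle and -0.12 ± 0.48 in VPA animals at 24 h (SD, n = 5, 4 and 5), and 0.55 ± 0.06, 0.22 ± 0.56 and 0.32 ± 0.25 at 120 h (n = 4, 5 and 4). In the 5 naïve animals this difference ran from -0.5 to 0.23 (SD 0.31), with the mitosis score higher in 3. The Vehicle and VPA means at 24 h and the Vehicle mean at 120 h lay within that range. VPA animal 5 at 24 h scored 1.46 for S phase and 0.58 for mitosis, while VPA animals 1, 2 and 3 scored higher for mitosis.

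**Figure D5:**
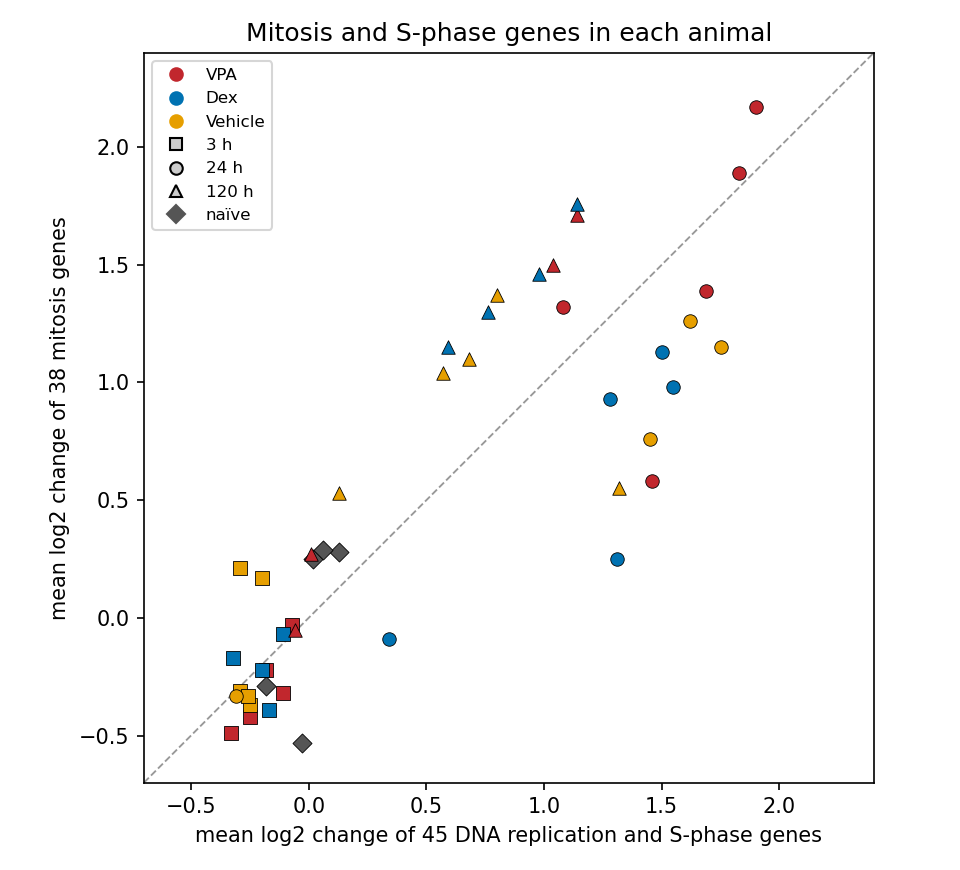
Mean log2 change from naïve of 45 S-phase genes (horizontal axis) and 38 mitosis genes (vertical axis) in each of the 46 animals; colour gives the treatment, shape the time, and the dashed line equal scores. At 24 h 11 of 14 animals lie below the line and at 120 h 12 of 13 lie above it, as do 3 of 5 naïve animals.

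Of 85 other listed mitosis genes, 72 were measured and 68 tested. At 24 h 55, 17 and 14 of the 68 were called up in VPA, Dex and Vehicle animals, and at 120 h 0, 42 and 11. For this list and the regulators below, the shares over all tested probe sets were 5.92%, 2.59% and 4.79% at 24 h. At 120 h those shares were 0.493%, 4.76% and 1.83%. At 24 h in VPA animals these included Smc4 and Smc2 (the ATPases of condensin, 1.07 and 1.30), Cenpn (1.38) and Esco2 (the cohesin acetyltransferase, 1.93). Wee1, the kinase that holds CDK1 inactive, was called up at 3 h in Dex (1.78 ± 0.23) and Vehicle animals (1.17 ± 0.21). Of 23 regulators of cell cycle genes 20 were measured and 15 tested, and 8, 3 and 3 were called up at 24 h in VPA, Dex and Vehicle animals and 0, 4 and 2 at 120 h. Foxm1, the forkhead factor that drives mitosis genes, rose by 1.77 ± 0.28 in VPA animals at 24 h and by 1.44 ± 0.30 in Dex and 1.09 ± 0.28 in Vehicle animals at 120 h. Cdkn1a (p21, an inhibitor of cyclin-dependent kinases) was the only regulator called at 3 h, at 1.71 ± 0.36, 3.16 ± 0.39 and 2.22 ± 0.36 in VPA, Dex and Vehicle animals.

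Melk, a kinase whose RNA accompanies mitosis genes in many dividing cells, was called in no comparison, and against naïve its change ran from -0.66 ± 0.20 in Vehicle animals at 3 h (adjusted p = 0.018) to 0.10 ± 0.22 in VPA animals at 120 h. At 24 h it changed by 0.02 ± 0.20 in VPA, -0.52 ± 0.20 in Dex and -0.49 ± 0.22 in Vehicle animals.

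Markers of other cells moved with the mitosis genes in part. The summed signal of 8 of 8 macrophage markers ran from 1820 to 3010 in VPA animals at 24 h, 1430 to 2200 in Dex animals and 1440 to 2320 in Vehicle animals, and at 120 h from 1300 to 8190, 3060 to 4780 and 1310 to 4550, against 1300 to 1610 in naïve animals. The sum of 7 of 9 lymphocyte markers ran from 322 to 502, 256 to 352 and 317 to 382 in VPA, Dex and Vehicle animals at 24 h and from 386 to 1080, 485 to 806 and 249 to 991 in VPA, Dex and Vehicle animals at 120 h, against 406 to 489 in naïve animals. A sum follows its brightest markers, and the lymphocyte score, the mean log2 change over the markers, read otherwise. It averaged 0.24, -0.22 and -0.06 in VPA, Dex and Vehicle animals at 24 h. At 120 h it averaged 0.29, 0 and 0.15, with SDs of 0.47, 0.09 and 0.27. The sum of 8 of 10 tubular injury markers ran from 11200 to 20800, 4860 to 16800 and 6340 to 17300 in VPA, Dex and Vehicle animals at 24 h and from 3340 to 23800, 14200 to 21500 and 3220 to 18700 at 120 h, against 2910 to 3940 in naïve animals. The sum of 8 of 9 proximal tubule markers ran from 9740 to 21000, 7840 to 17300 and 8250 to 24100 in VPA, Dex and Vehicle animals at 24 h, against 22700 to 27400 in naïve animals. The score of 6 of 6 fibroblast markers averaged 1.0, 0.86 and 0.63 in VPA, Dex and Vehicle animals at 120 h, with naïve animals at 0. The SDs were 0.47, 0.25 and 0.59, and 0.48 in naïve animals. The sums overlapped, at 4600 to 9280, 5540 to 8660 and 3270 to 8040, against 3130 to 5920 in naïve animals. Lum, the dimmest of the 6, averaged 293, 116 and 99.7 signal units, against 145 in naïve animals. In the VPA group at 120 h the tubular injury score was 2.76 and 2.88 in animals 1 and 4, whose mitosis scores were 1.71 and 1.5, and 0.23 and 0.36 in animals 2 and 3, whose mitosis scores were 0.27 and -0.05. These scores did not go together everywhere. Vehicle animal 1 at 120 h had -0.06 for tubular injury and 0.53 for mitosis. Dex animals at 3 h had 1.47 to 1.84 for tubular injury and -0.39 to -0.07 for mitosis. The macrophage score in VPA animals 1 to 4 at 120 h was 1.68, -0.13, 1.03 and 2.21. Some markers of these lists were dim. Cd3d, the dimmest lymphocyte marker in these groups, averaged 11.2 signal units in naïve animals, 9.94 in Dex animals at 24 h and 19.4 in VPA animals at 120 h. Cd163, the dimmest macrophage marker, averaged 20.2 in naïve animals and 64 in VPA animals at 120 h. Whether such markers were detected was not tested. The part of macrophages, lymphocytes, fibroblasts, the proximal tubule or the extent of injury in the change of the mitosis genes was not tested.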

How the data were processed

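Kidney RNA of rats was hybridized to 46 Affymetrix Rat Gene 1.1 ST arrays, each taken as 1 animal. The deposited values are intensity values on a linear scale, which the authors summarized per probe set with the iterPLIER algorithm of Affymetrix Expression Console 1.1 and normalized between arrays. All 46 columns were matched to samples by title. Signals were taken as log2(signal + 16). The 10 groups were fitted together with limma 3.58.1 (R 4.3.3), variances were moderated over all 29214 probe sets, and p-values were adjusted by Benjamini-Hochberg over the more variable 14607 probe sets by SD, after the study's methods. A gene was called at an adjusted p under 0.05 and at least 2-fold. Counts at an unadjusted p under 0.05 stand without the share of all tested probe sets at that threshold, which is not given here. Fold changes on the log2(signal + 16) scale understate the change of dim probe sets. Of the probe sets, 18644 carried 1 gene symbol, 962 several and 9608 none in the platform annotation.

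Values of single animals were given for the 2 measured genes of each role with the highest mean (15 genes). Of the other lists, up to 4 called genes per comparison with the highest mean were named. The genes and lists were chosen with earlier results of these data known. Labels give replicate numbers, which were taken as separate animals, so that p-values measure the spread between animals. The number of arrays limits the precision. The pseudocount, filters, normalization, variance model, probe set rule, groups in the fit, replicate number and each array in turn were varied. The limma fit was tested on simulated data.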

Additional observations from a re-analysis of the deposited data

Results flagged for a closer look

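Of 160 checks of 1 animal against its group, over the 15 genes given by animal and the member score, 8 showed an animal far from the rest, and about 1 in 20 would by chance. The value given is the gap to the nearest animal as a share of the range of the group. Naïve animal 1 stood low for Cdc20 (0.795, at 6.22 on the log2 scale with the nearest animal at 7.07), for Aurkb (0.729, 5.63 and 6.32) and for Nek2 (0.889, 7.25 and 8.1). At 3 h VPA animal 2 stood high for Cdc25b (0.732, 8.67 and 7.96), VPA animal 3 for Mki67 (0.718, 7.38 and 6.88) and Vehicle animal 5 for Ccna2 (0.788, 7.09 and 6.38). Vehicle animal 1 at 24 h stood low for Mad2l1 (0.959, 6.81 and 8.26), and Dex animal 4 at 120 h high for Cenpe (0.859, 7.72 and 7.29). No difference between treatments in a change over time passed its test.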

How the results depend on the processing

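No called result changed sign under the alternatives run. Calls changed as follows, those against naïve kidneys first and then those between times or treatments. In Vehicle animals at 24 h 8 genes were called, and 4 after quantile normalization, 5 with ordinary variances, 2 with only the groups compared in the fit and 24 without the 3 arrays nearest another time, an alternative chosen after seeing the data. In Vehicle animals at 120 h 17 were called, and 11 with no filter, 8 after quantile normalization and 10 with ordinary variances. The single call in VPA animals at 120 h against 24 h became 0 with no filter, with dim probe sets removed, with pseudocount 1, after quantile normalization, with ordinary variances, with only the groups compared and with the replicate block, and 2 without the 3 arrays. The 13 calls in Vehicle animals at 24 h against 3 h became 0 with only the groups compared and 25 without the 3 arrays, and VPA against Dex animals at 24 h then gave 1. Averaging the probe sets of each gene could not change a value, since the paired probe sets of Ccnb2 and Nek2 are identical.

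Leaving out each array in turn gave 32 to 35 genes called in VPA, 1 to 16 in Dex and 0 to 24 in Vehicle animals at 24 h against naïve, and 0 to 26, 28 to 31 and 1 to 21 at 120 h. From 3 to 24 h it gave 33 to 35, 9 to 19 and 1 to 25, and from 24 to 120 h 0 to 3 in VPA and 5 to 12 in Dex animals, with 0 to 4 for VPA against Dex animals at 24 h. Over all counts and genes given by animal, 3192 of these results stayed on their side of the threshold, 98 lost it and 55 gained it. The cause of these changes was not tested. The replicate numbers did not pair the animals: deviations of same-numbered animals correlated at 0.014 on average, with group pairs at -0.37 to 0.21, and 9 of 46 arrays matched their own number best. With the replicate block 356 results stayed on their side of the threshold and 4 lost it, the call at 120 h against 24 h in VPA animals (0 genes) among them.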
